A study of Homo sapiens with 4 samples.

Results

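A group of 8 protein-coding genes of the translation machinery was read across 4 FLASH-seq libraries. They were taken by name as RPL6, RPL11, RPL37A, RPS24, RPS4X, EEF1A1, EIF3B and EIF2S3, and make 8 of the 9667 genes in the deposited tables. For each gene, the 200-base bins from the deposited gene start to the start plus the gene length were summed. The genes of ribosomal proteins and of EEF1A1 have many processed pseudogenes, retrocopies of the mRNA scattered over the genome, which share their exon sequence, so exon reads of these genes may be misplaced in either direction.

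FLASH-seq links proteins to the RNA they touch with ultraviolet light, pulls a biotin-carrying protein down on streptavidin beads, trims the RNA with RNase I and sequences what stays bound. The tagged-CFAP20 group (2 libraries) expresses FLASH-BIO-CFAP20 in RPE1 iCas9 cells of the p53/puro-dKO CFAP20-KO line, and the CFAP20-KO group (2 libraries) is that line without the tagged protein. All 4 libraries therefore share the iCas9 construct, the loss of p53 and of the puromycin marker, and the loss of endogenous CFAP20. RPE1 is an immortalised human retinal pigment epithelial line, and CFAP20 is known from cilia and flagella, with RNA binding as the question of the study. How FLASH-BIO-CFAP20 is driven and whether each line is a single clone are not stated in any source used here. Nor do the labels say that replicates are separate cultures, so p-values measure a spread that may be technical only.

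Ribosomal proteins of the large (RPL) and small (RPS) subunit are assembled with rRNA in the nucleolus, and their genes are among the most highly transcribed of a dividing cell. EEF1A1 delivers aminoacyl-tRNA to the elongating ribosome, EIF3B is a scaffold subunit of the initiation factor eIF3, and EIF2S3 is the GTP-binding gamma subunit of eIF2, which carries the initiator tRNA. Many of these mRNAs begin with a C followed by a run of pyrimidines, the 5′ terminal oligopyrimidine motif through which their translation follows the mTOR pathway.

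The libraries differed in depth. Values within a table came in whole multiples of a smallest step, taken as 1 read overlapping 1 bin and called a read overlap here. A step was worth a signal of 12.85 and 13.93 in tagged-CFAP20 replicates 1 and 2, against 83.0 and 276.88 in CFAP20-KO replicates 1 and 2. Over all genes the tagged-CFAP20 libraries held 165189 and 134891 read overlaps, against 9146 and 3908 in the CFAP20-KO libraries. Summed gene signal was 2001355 ± 172356 with the tagged protein and 920583 ± 228345 without it (SD, n = 2 each), 2.17 times as much, a ratio that includes any factor of the normalization, which no source used here gives. On the coding bins of CFAP20 there were 36 and 38 read overlaps with the tagged protein, against 0 and 0 in CFAP20-KO. A count of 0 allows up to 3 reads, a signal of 343 and 1143 in CFAP20-KO replicates 1 and 2. At that depth the zeros do not by themselves show the knockout. Markers of the RPE1 line had signal in both tagged-CFAP20 libraries for 7 of the 7 found in the tables. Among markers of other cells, TTR (differentiated pigment epithelium), CD3E (blood), ALB and SERPINA1 (liver) were at 0 throughout. RPE65 and RLBP1 of differentiated pigment epithelium together had a signal of 64.3 and 27.9 with the tagged protein, against 0 and 0 in CFAP20-KO. SPI1 of blood and TF of liver each had 13.9, or 1 read overlap, in tagged-CFAP20 replicate 2 and 0 in the other libraries. The neuronal SNAP25 and STMN2 together had 167 and 209.0 with the tagged protein, against 0 and 0 in CFAP20-KO. All of these sums are under 263.5, the signal that 3 reads pooled over the CFAP20-KO libraries are worth, so a difference between the groups is not detectable at this depth.

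The transcription starts of 7 of the genes are shown because 5 of them carry the pyrimidine run that marks this class of mRNA. Each line holds 30 bases of RefSeq sequence (GRCh38.p14), 10 before the start and 20 from it on. Capitals mark the longest pyrimidine run that begins with C within 5 bases of the start, where it has at least 5 letters (C or T, on the gene's strand only). RPL6 had no RefSeq entry at its GENCODE start and is named only.
RPL11, chr1:23691796-23691825, plus strand: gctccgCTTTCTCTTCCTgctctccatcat
RPL37A, chr2:216498834-216498863, plus strand: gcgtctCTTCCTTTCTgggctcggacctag
RPS24, chr10:78033853-78033882, plus strand: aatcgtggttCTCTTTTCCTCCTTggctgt
RPS4X, chrX:72277229-72277258, minus strand: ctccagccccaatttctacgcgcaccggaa
EEF1A1, chr6:73521013-73521042, minus strand: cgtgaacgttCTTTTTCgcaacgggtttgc
EIF3B, chr7:2354817-2354846, plus strand: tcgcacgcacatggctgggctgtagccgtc
EIF2S3, chrX:24054946-24054975, plus strand: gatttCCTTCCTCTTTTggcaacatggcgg
The run is the textbook feature of RPL11, RPL37A, RPS24 and EEF1A1, and EIF2S3 holds one as well, while RPS4X and EIF3B hold none in this window. Of 35116 promoter entries in the same table, 21.1% held such a run, against 70.9% of 86 entries of cytosolic ribosomal protein genes and 30.8% of 65 entries of translation factor genes. A gene can have several entries, and a match is a match of letters only.

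The 5 genes of ribosomal proteins are described first. RPS24, a protein of the small subunit, lies on chr10:78033865-78040697 (hg38, plus strand, 6 exons in the GENCODE 44 canonical transcript) and had the most signal of the 8 genes with the tagged protein. There were 137 and 136 read overlaps with the tagged protein, against 9 and 0 in CFAP20-KO replicates 1 and 2. The summed signal was 1828 ± 94.8 with the tagged protein and 373.5 ± 528.2 in CFAP20-KO (SD, n = 2 each). The groups did not overlap, but CFAP20-KO replicate 1 alone carried all of the control signal. The ratio of pooled reads was 3.18, with a 95% exact counting interval of 1.41 to 7.46. In limma the log2 change was 1.98 (SE 0.64, adjusted p = 0.0888), which did not pass the threshold of 0.05. The log2 change was 1.23 with window totals made equal between libraries, 2.93 without CFAP20-KO replicate 1 and 1.04 without CFAP20-KO replicate 2. As a share of each library's gene signal RPS24 took 0.0829% and 0.101% with the tagged protein, against 0.0984% and 0% in CFAP20-KO, so 1 control library lay within the tagged range.

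RPL6, a large-subunit protein, lies on chr12:112405199-112409641 (minus strand, 7 exons). It held 36 and 25 read overlaps with the tagged protein, against 0 and 1 in CFAP20-KO. Its signal was 406 ± 80.9 and 138 ± 196 (SD, n = 2 each) in tagged-CFAP20 and CFAP20-KO, and the pooled-read ratio was 6.39 (0.785 to 186). With a mean of 272 over the 4 libraries it lay just under the minimum of 276.88, the worth of 1 read overlap in the shallowest library, and was not tested in limma. RPL37A, also of the large subunit, lies on chr2:216498189-216504086 (plus strand, 4 exons) and held 35 and 28 overlaps with the tagged protein, against 0 and 2 in CFAP20-KO. Because each overlap in CFAP20-KO replicate 2 is worth so much, that library had the highest RPL37A signal of the 4. The pooled-read ratio was 3.30 (0.822 to 194) and the limma log2 change 0.54 (SE 0.57, adjusted p = 0.535).

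RPL11, a large-subunit protein that also binds the p53 regulator MDM2, lies on chr1:23691779-23696425 (plus strand, 6 exons). It held 26 and 15 overlaps with the tagged protein, against 1 and 2 in CFAP20-KO, and the groups overlapped. Its pooled-read ratio was 1.43 (0.398 to 13.6), and its limma log2 change was -0.0049 (SE 0.50, adjusted p = 0.994). RPS4X, the X-linked copy of small-subunit protein eS4, lies on chrX:72272042-72277300 (minus strand, 7 exons) and held 22 and 22 overlaps with the tagged protein, against 2 and 2 in CFAP20-KO. Its pooled-read ratio was 1.15 (0.349 to 5.70) and its log2 change -0.086 (SE 0.45, adjusted p = 0.902 in limma). All of RPS4X lies within PIN4, a gene on the other strand, and the tables do not split strands, so its overlaps cannot be told apart from those of PIN4.

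Of the translation factors, EIF2S3 lies on chrX:24054716-24077971 (plus strand, 12 exons) and had the largest pooled-read ratio among them. It held 62 and 80 read overlaps with the tagged protein, against 3 in CFAP20-KO replicate 1, and it had no row in the table of CFAP20-KO replicate 2, where it was taken as 0. The signal was 955.8 ± 225 with the tagged protein and 125 ± 176 in CFAP20-KO (SD, n = 2 each), and the groups did not overlap. The pooled-read ratio was 4.96 (1.46 to 45.1), and the log2 change was 1.68 (SE 0.48, adjusted p = 0.0740 in limma). EIF3B lies on chr7:2354866-2380743 (plus strand, 19 exons) and held 78 and 67 overlaps with the tagged protein, against 4 and 2 in CFAP20-KO. Its signal was 968.05 ± 48.8 with the tagged protein, against 443 ± 157 in CFAP20-KO (SD, n = 2 each), with no overlap of the groups, a pooled-read ratio of 2.53 (1.04 to 10.3) and a log2 change of 0.81 (SE 0.40, adjusted p = 0.197 in limma).

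EEF1A1 lies on chr6:73515752-73521032 (minus strand, 8 exons). It held 61 and 67 overlaps with the tagged protein, against 5 and 2 in CFAP20-KO. Its signal was 858.8 ± 106 with the tagged protein and 484 ± 98.1 without it (SD, n = 2 each), with no overlap of the groups. The pooled-read ratio was 1.91 (0.805 to 6.14), and the log2 change was 0.58 (SE 0.39, adjusted p = 0.327 in limma), which became -0.21 when window totals were made equal between libraries.

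**Figure D1:**
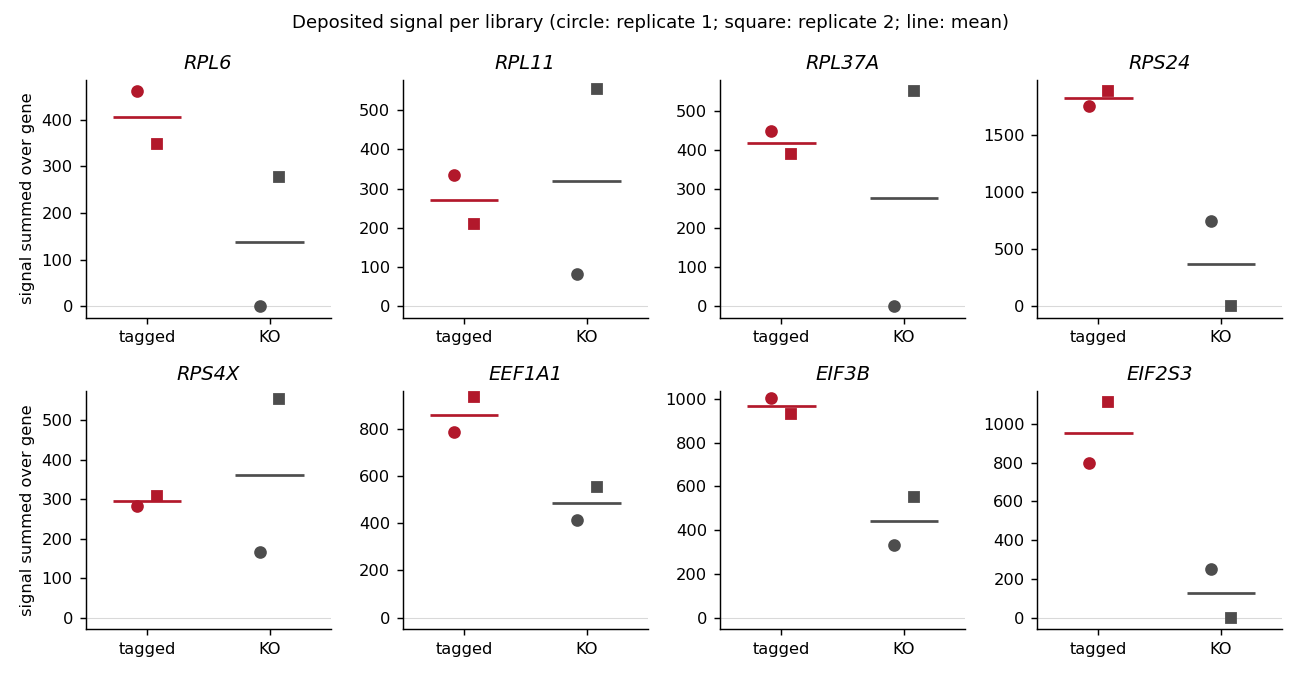
Signal summed over each of the 8 genes (y axis, deposited normalized signal, each panel with its own linear scale) in tagged-CFAP20 (left) and CFAP20-KO (right), with 1 point per library and a line at the mean. The 2 tagged-CFAP20 points lie above both CFAP20-KO points for RPL6, RPS24, EEF1A1, EIF3B and EIF2S3, and the groups overlap for RPL11, RPL37A and RPS4X.

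Per kilobase of gene, signal with the tagged protein ran in the order RPS24 (268), EEF1A1 (163), RPL6 (91.3), RPL37A (71.2), RPL11 (58.4), RPS4X (56.0), EIF2S3 (41.1) and EIF3B (37.4). RPS24 and EEF1A1 stood apart from the genes below them in both tagged-CFAP20 libraries. Between neighbours in this order, the ranges of the tagged-CFAP20 libraries overlapped for RPL37A and RPL11, for RPL11 and RPS4X, and for EIF2S3 and EIF3B, and did not for the others. By these means the 2 long genes, EIF2S3 and EIF3B, had more signal in all than the short ribosomal protein genes other than RPS24, and less per kilobase. In tagged-CFAP20 replicate 2 alone, EIF2S3 had 47.9 per kilobase, against 45.0 for RPL11.

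No gene of the 8 passed the threshold in limma, and neither did any other gene. Of 1487 genes tested, 0 (0%) had an adjusted p under 0.05, and 497 had an unadjusted p under 0.05, as had RPS24 and EIF2S3 among the 7 of the 8 tested. The median log2 change was 0.58 over the 7 tested genes, beside 0.78 over all genes tested, and with window totals made equal between libraries these medians were 0.031 and -0.0014. The log2 changes of RPS24, EIF2S3 and EIF3B lay above the 0.78 of all genes, and those of EEF1A1, RPL37A, RPL11 and RPS4X below it. Among the genes tested, 62.7% had both tagged-CFAP20 libraries above both CFAP20-KO libraries, as had 4 of the 7 tested here (RPS24, EEF1A1, EIF3B and EIF2S3). An exact binomial test on pooled reads, which measures counting error and not the spread between libraries, passed RPS24 (adjusted p = 0.0105) and EIF2S3 (adjusted p = 0.0193) on the deposited scale, where 29.7% of genes passed as higher. The same test on shares of the gene signal passed none of the 7, and 1.08% of all genes.

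These calls rest on the control libraries. Without CFAP20-KO replicate 1, limma passed 4 of the 8 genes. RPS24, EIF2S3 and EIF3B passed as higher, with log2 changes of 2.93, 2.14 and 0.58, and RPL11 as lower, with -0.61. Of the 1641 genes tested in that fit, 51.1% passed as higher and 12.7% as lower. Without CFAP20-KO replicate 2, 5 genes remained above the minimum and all 5 passed as higher, RPL37A (1.33), RPS24 (1.04), EEF1A1 (0.71), EIF3B (1.03) and EIF2S3 (1.22), beside 72% of the 1577 genes tested. In each of these fits the remaining control library is assumed to vary like the tagged-CFAP20 libraries, and most genes tested passed.

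Summed over the 8 genes, there were 457 and 440 read overlaps with the tagged protein, against 24 and 11 in CFAP20-KO. The summed signal was 6002 ± 182 with the tagged protein and 2519 ± 745.1 in CFAP20-KO (SD, n = 2 each), or 2.38 times as much, beside 2.17 for all genes. The exact two-sided permutation test gave p = 0.333, the smallest that 2 against 2 libraries allow. As a share of the gene signal, the 8 genes took 0.277% and 0.326% with the tagged protein, against 0.262% and 0.281% in CFAP20-KO, ranges that overlap (exact permutation test, p = 0.667). The ratio of these shares in pooled reads was 1.11 (95% exact interval 0.762 to 1.77). The mean difference in share was 0.029 percentage points, and it was -0.013 without RPS24 and -0.0025 without EIF2S3. At this depth a difference in share between the groups was therefore not detectable for the genes together, and for each gene alone the interval of the share ratio included 1.

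**Figure D2:**
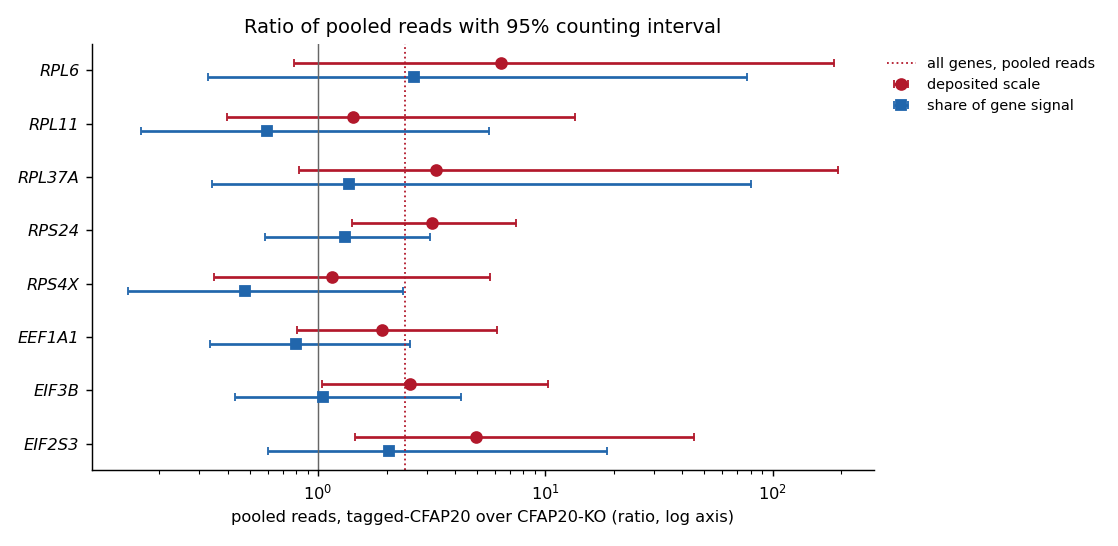
Ratio of pooled reads, tagged-CFAP20 over CFAP20-KO (x axis, log scale), for each gene on the deposited scale (circles) and as a share of the gene signal (squares), with 95% exact counting intervals. On the deposited scale the intervals of RPS24, EIF3B and EIF2S3 lie above 1 and all 8 include the ratio over all genes of 2.41 (dotted line), and as shares all 8 include 1.

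The position of the reads within the genes was read next. In RPS24 the reads were concentrated on 1 bin, centred 3400 bases from the start, that holds exon 4. This bin held 33 and 42 overlaps in tagged-CFAP20 replicates 1 and 2, which is 24.1% and 30.9% of the overlaps of the gene, against 1 of 9 in CFAP20-KO replicate 1 and 0 in replicate 2. In the tagged-CFAP20 libraries together it held 27.5%, while the median top bin over 860 genes with at least 100 overlaps held 4.83%, and only 4 of those genes had a larger share in 1 bin. Among the 36 of them up to 10 kb long the median was 13.3%, and 3 had a larger share. The bin is shown with the 111 coding bases of exon 4 in capitals, between the intron bases on either side.
RPS24, chr10:78037165-78037364, hg38, plus strand: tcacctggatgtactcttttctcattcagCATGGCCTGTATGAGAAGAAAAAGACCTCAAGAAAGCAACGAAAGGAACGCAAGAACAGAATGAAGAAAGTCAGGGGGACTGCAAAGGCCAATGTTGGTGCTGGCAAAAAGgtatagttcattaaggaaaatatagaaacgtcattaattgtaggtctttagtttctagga
Of the 80 words of 32 bases in this exon, 76 occur elsewhere in hg38 as well, so reads within it cannot be placed with certainty.

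Downstream of this exon, the bins of RPS24 intron 4 (2899 bases, 14 bins) held 52 and 50 overlaps with the tagged protein, against 4 and 0 in CFAP20-KO. Introns 1 and 3, of 6 and 7 bins, held 8 overlaps each in the 2 tagged-CFAP20 libraries together. Only 2.20% of the 32-base words of intron 4 occur elsewhere, so nearly all of this intron has no identical copy. Intron 4 is the alternatively spliced end of the gene, and all of its bases lie in an exon of at least 1 of 9 other annotated transcripts. The short alternative exon of 18 bases and the 22-base exon 5 of the canonical transcript are shown in capitals, because they fall in this covered stretch.
RPS24 18-base exon, chr10:78037959-78037988, hg38, plus strand: catcagAAATGAAGTGTCTAGCAGgtactg
RPS24 exon 5, chr10:78040200-78040229, hg38, plus strand: tcagTGAGCTGGAGATTGGATCACAGgtat
The bin with exon 5 held 4 and 8 overlaps with the tagged protein, and the bin with exon 6, the last, held 12 and 10, against 1 and 0 in CFAP20-KO for exon 6 and 0 in both for exon 5. The 2 kb after the gene end held 5 and 6 overlaps, against 0 in both CFAP20-KO libraries, and the 2 kb before its start held 0 in all 4.

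EEF1A1 was covered from its start and little at its end. The first of 3 equal parts of the gene held 61.7% of its tagged-CFAP20 overlaps and the last held 3.1%. Intron 1 (4 bins) held 15 and 17 overlaps with the tagged protein, against 0 and 0 in CFAP20-KO, and its bin centred 800 bases from the start was the highest of the gene, with 7 and 9. None of the 32-base words of the introns of EEF1A1 occurs elsewhere in hg38, while exons 2 to 7 are shared almost whole, between 82.6% and 100% of their words. Exon 8, with most of the 3′ UTR, held 9 and 1 overlaps in 12 bins. Every base of intron 1 also lies in an exon of another annotated transcript of EEF1A1.

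EIF2S3 showed the reverse arrangement. Of its tagged-CFAP20 overlaps 76.1% lay in the last of 3 equal parts of the gene. Intron 11 (3458 bases, 16 bins) held 26 and 37 and the last exon 15 and 13, against 0 in both CFAP20-KO libraries, whose 3 overlaps lay further upstream. Of the bases of intron 11, 7.66% lie in an exon of another annotated transcript, and 20.7% of its 32-base words occur elsewhere. EIF3B was covered more evenly, in 69 of its 130 bins in at least 1 tagged-CFAP20 library and in 26 bins in both, with a top bin of 7 overlaps.

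In RPL37A the 2 bins of exon 2 held 15 and 6 overlaps with the tagged protein, against 0 and 0 in CFAP20-KO. The deposited start lies before the RefSeq start, in a stretch shared with the divergent RPL37A-DT. Its exon 4, with a long 3′ UTR, held 4 and 4 overlaps in 14 bins. RPL6, RPL11 and RPS4X had top bins of 8, 6 and 5 tagged-CFAP20 overlaps, too few to tell a position from counting error.

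**Figure D3:**
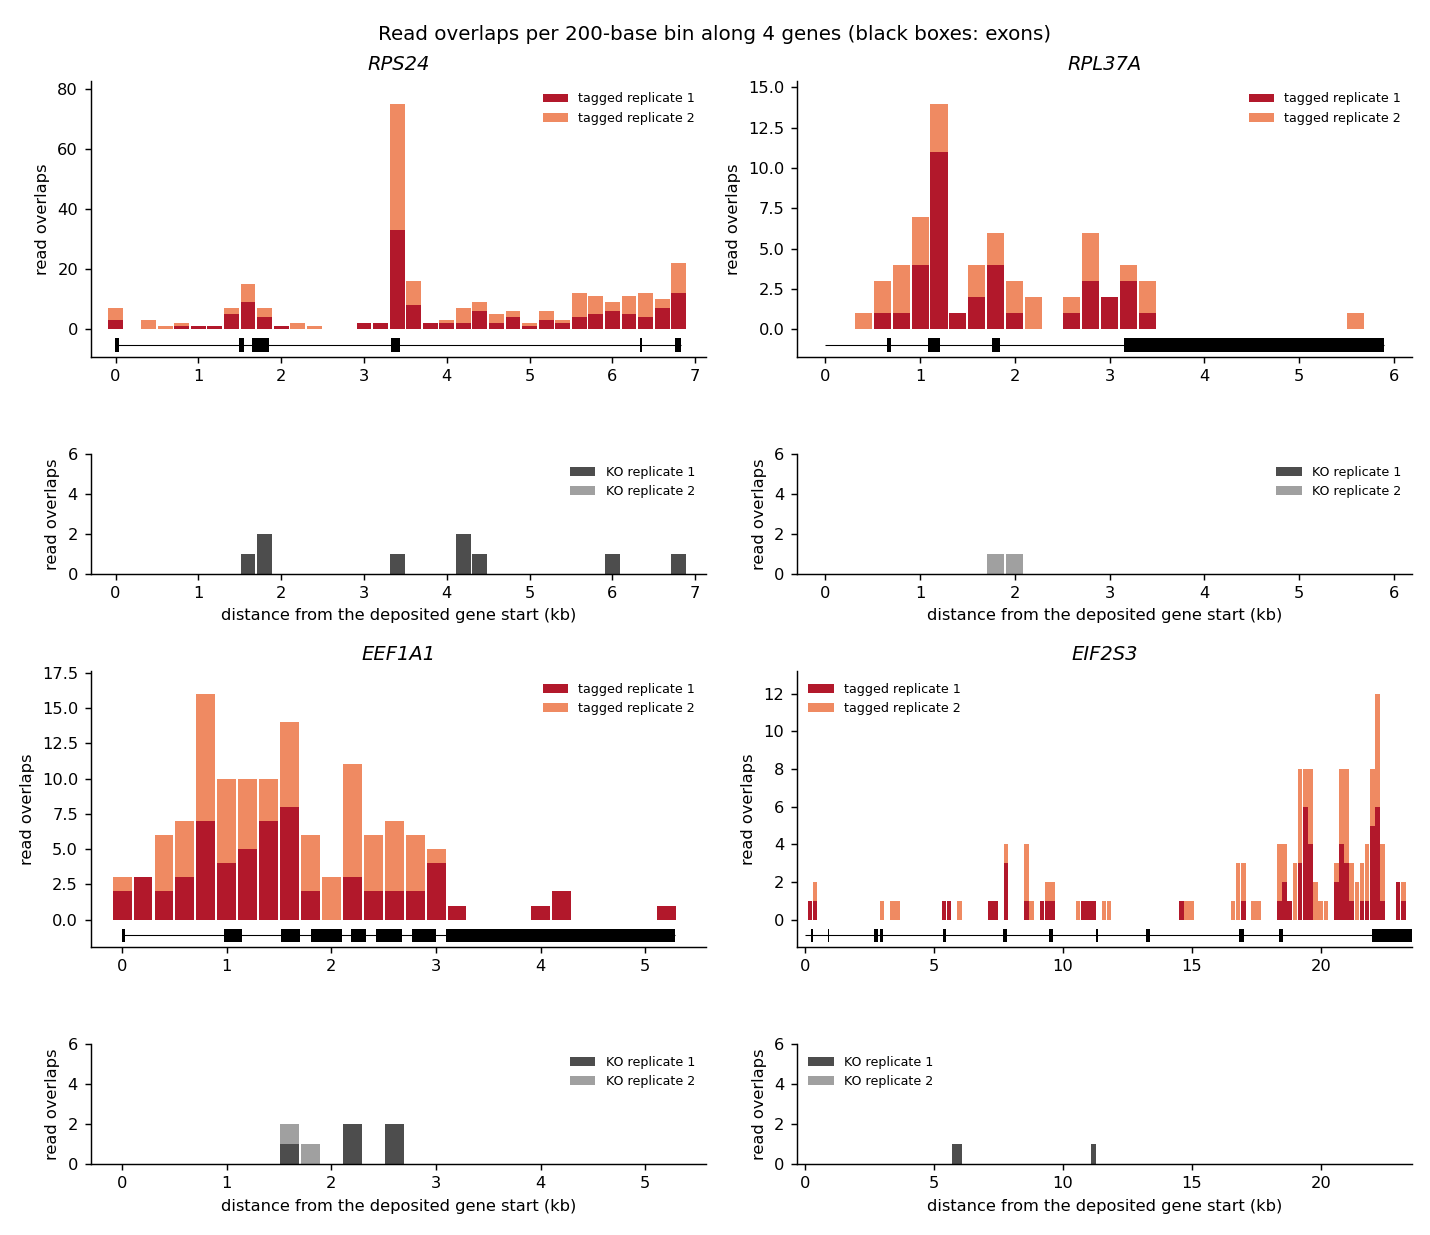
Read overlaps per 200-base bin (y axis) along RPS24, RPL37A, EEF1A1 and EIF2S3 against the distance from the deposited gene start (x axis, kb), with tagged-CFAP20 above and CFAP20-KO below, replicates stacked, and exons of the canonical transcript as black boxes. RPS24 peaks at exon 4 with 33 and 42 overlaps, EEF1A1 is covered in its first part, and EIF2S3 in its last.

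Bins that overlap an exon of the canonical transcript held 56.7% and 55.6% of the overlaps of the 8 genes in the tagged-CFAP20 libraries, against 70.8% and 72.7% in CFAP20-KO. The groups did not overlap, with a mean difference of -15.7 percentage points (exact permutation test, p = 0.333). The 95% exact interval of the pooled CFAP20-KO share, 25 of 35 overlaps or 71.4%, was 53.7% to 85.4% and includes both tagged-CFAP20 values. It counts each overlap as 1 read, so the interval for reads is wider. EEF1A1 contributed most to the difference, with 22 and 20 overlaps in intron bins with the tagged protein and 0 of 7 in CFAP20-KO, and without it the difference was -10.7 points. Counting only bins with 100 or more exon bases, the shares were 32.2% and 33.7% with the tagged protein, against 45.8% and 36.4% in CFAP20-KO, a difference of -8.16 points. In other genes of any length the exon share was higher with the tagged protein, 41.9% and 42.1% against 35.5% and 36.3% in CFAP20-KO. In other genes up to 30 kb long it was 55.6% and 56.8% with the tagged protein, against 56.6% and 57.8% in CFAP20-KO. The bins available differ, since 33.7% of the bins of the 8 genes overlap an exon, against 22.8% in other genes up to 30 kb. Per bin available, exon bins of the 8 genes held 2.51 times as many tagged-CFAP20 overlaps as their intron bins. In other genes up to 30 kb the ratio was 4.34, a difference that was not tested. Among the 8 genes this ratio was highest in EIF3B (5.01) and RPS24 (4.53) and below 1 in RPL37A (0.792) and EEF1A1 (0.465). Intron bins are those outside canonical exons, and other transcripts may hold exons there. Every base of RPL37A introns 1 to 3 and EEF1A1 introns 1 and 2 lies in an exon of another annotated transcript, and none of RPS4X introns 1 to 3 does. The last exon, with a long 3′ UTR, takes 14 of 18 exon bins in RPL37A and 12 of 22 in EEF1A1. These bins held 8 of 38 and 10 of 86 tagged-CFAP20 exon overlaps, so the low ratios do not compare introns with coding exons.

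**Figure D4:**
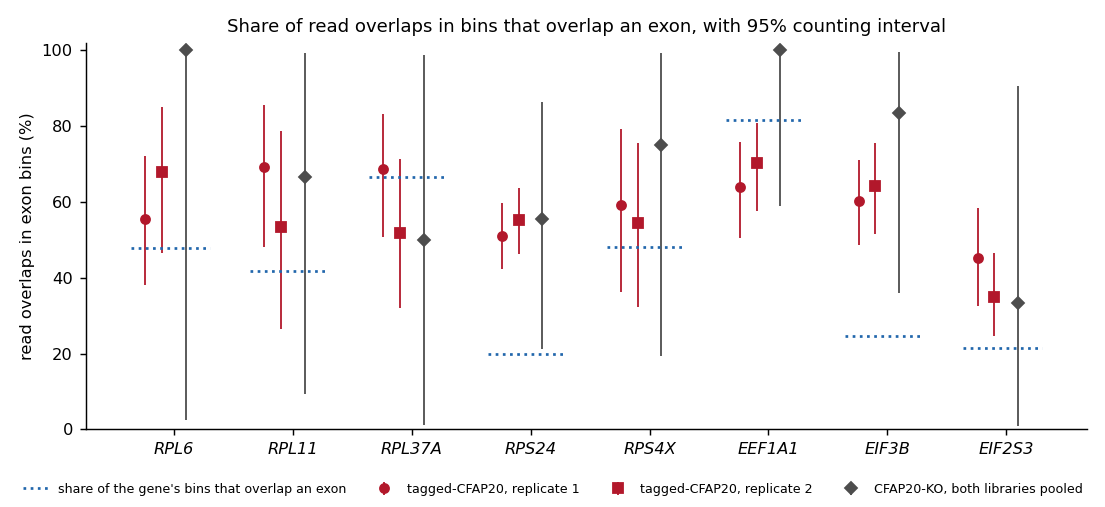
Share of read overlaps in bins that overlap an exon (y axis, percent) for each gene in tagged-CFAP20 replicates 1 and 2 and in the 2 CFAP20-KO libraries pooled, with 95% exact counting intervals, and the share of the gene's bins that overlap an exon as dotted lines. The intervals count each overlap as 1 read and are therefore too narrow. EEF1A1 had 42 intron overlaps with the tagged protein and none of its 7 in CFAP20-KO, and the CFAP20-KO intervals are wide for all 8 genes.

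How far the exons can be told from copies differed between the genes. In GENCODE 44, 119 processed pseudogenes carry the name of 1 of the 8 genes, 45 for EEF1A1, 31 for RPL6, 23 for RPS4X, 14 for RPS24, 4 for RPL11, 2 for RPL37A and 0 for EIF3B and EIF2S3. Of the 32-base words in exons, 91.2% occur elsewhere in hg38 for RPL6, 49.1% for EEF1A1, 49.0% for RPS24, 40.0% for EIF2S3, 25.1% for RPS4X, 12.4% for RPL37A, 3.94% for RPL11 and 0% for EIF3B. EIF2S3 thus shares exon sequence with other places, exons 5 and 8 at 100%, though no processed pseudogene carries its name. In introns the share was between 0% and 5.02% for the ribosomal protein genes and EEF1A1, 17.3% for EIF3B and 22.8% for EIF2S3. The introns of EEF1A1, RPL37A and RPS4X held no word with a copy elsewhere. How the authors treated reads with several equal placements is not stated in any source used here.

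**Figure D5:**
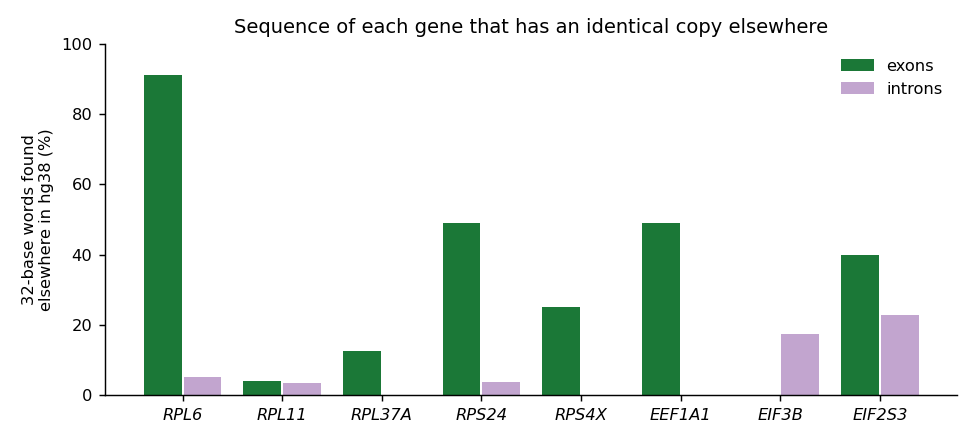
Share of the 32-base words of each gene's exons (left bar) and introns (right bar) that occur at least once more in hg38 (y axis, percent). RPL6 exons are shared at 91.2%, EIF3B exons at 0%, and the introns of RPL37A, RPS4X and EEF1A1 at 0%.

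Of the 119 pseudogenes 30 lay within the deposited windows, and their 187 bins held 29 tagged-CFAP20 overlaps, against 17 in the 371 bins on either side. In CFAP20-KO the pseudogene bins held 4 overlaps, against 1 beside them. RPL37AP1 on chromosome 20 stood out, with 2 and 7 overlaps in 3 bins with the tagged protein, against 0 and 2 in CFAP20-KO and 0 beside it in all 4 libraries. The 3 RPS24 pseudogenes seen held 0 in all 4. The part of misplaced reads in the values of the 8 genes was not tested beyond these counts.

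Lists of genes of protein synthesis, which include the genes described above, were read in the same fit. Of 17 cytosolic ribosomal protein genes in the tables, 5 of them described above, 4 reached the minimum for the test. These 4 are RPL11, RPL37A, RPS24 and RPS4X, so no other ribosomal protein gene was tested. Of them 0 passed in either direction, and their median log2 change of 0.27 restates the values above. The next 3 by signal, all below the minimum, were RPS14, with 30 and 15 overlaps against 0 and 1 in CFAP20-KO, the p53-induced paralogue RPS27L, with 20 and 16 against 2 and 0, and RPL27, with 22 and 14 against 2 and 0. Of 18 translation factors 10 were tested and 0 passed, with a median log2 change of 0.89 and 10 of 10 positive, beside 1308 of 1487 over all genes. Those 10 include EEF1A1, EIF3B and EIF2S3. EEF1E1, a scaffold of the multisynthetase complex, held 31 and 48 overlaps, against 4 and 2 in CFAP20-KO (log2 change 0.17, adjusted p = 0.803 in limma). EIF1, which guards start codon choice, held 54 and 58, against 2 and 1 (log2 change 1.05, adjusted p = 0.130 in limma). EIF3H, another subunit of eIF3, held 41 and 38 over its first 100 kb, against 2 and 2 (0.41, adjusted p = 0.568 in limma).

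Of the aminoacyl-tRNA synthetases 5 of 6 in the tables were tested and 0 passed, with a median log2 change of 0.69. RARS, GARS and SARS, which charge tRNA with arginine, glycine and serine, had log2 changes of 1.25, 0.90 and 0.57 with limma adjusted p of 0.0948, 0.153 and 0.396. Of the ribosome biogenesis factors 10 of 13 were tested and 0 passed, with a median log2 change of 1.13. NOC3L, which accompanies the large subunit precursor, held 132 and 86 overlaps, against 0 and 0 in CFAP20-KO (limma adjusted p = 0.0524). The alternatives in which NOC3L passed included limma with a pseudocount of 10 (adjusted p = 0.0294), limma with a replicate block, and exact tests of the deposited signal. These 3 settings passed 40, 171 and 444 of all 1487 genes tested. The pseudocount of 10 is less than 1 CFAP20-KO read overlap is worth. NOC3L did not pass with equal window totals (adjusted p = 0.343 in limma). WDR75, of the small subunit processome, held 155 and 116, against 6 and 0 (log2 change 2.16, limma adjusted p = 0.0626). It passed with a replicate block and by exact tests of the deposited signal, as did 171 and 444 of the 1487 genes. The nucleolar helicase DDX21 held 120 and 100, against 6 and 4 (0.75, limma adjusted p = 0.246). With equal window totals the log2 changes of EEF1E1, EIF3H, SARS and DDX21 were below 0. So were the medians of the synthetases (-0.046) and of the ribosomal protein genes (-0.18), the latter again RPL11, RPL37A, RPS24 and RPS4X alone.

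Over the 4 libraries, the genes whose signal was most like that of RPS24 among the 1487 tested were CAPRIN1, RCOR3 and WDR75, at Euclidean distances of 0.29, 0.42 and 0.47 in log2(signal + 276.88). CAPRIN1, an RNA-binding protein of stress granules, held 152 and 138 overlaps with the tagged protein, against 7 and 0 in CFAP20-KO. RCOR3, a corepressor, held 120 and 107, against 7 and 0. All 3 shared with RPS24 the absence of reads in CFAP20-KO replicate 2, and 4 libraries give few points for such a likeness.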

How the data were processed

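RNA crosslinked and pulled down with biotin-tagged CFAP20 was measured in 2 tagged-CFAP20 and 2 CFAP20-KO libraries, grouped and numbered by their titles. The authors deposited 1 table of normalized signal (read coverage) per 200-base bin and gene for each library. Columns of unit other in the deposited tables give each gene's position, strand and length, and 1 further column of values was not used. Per the submitters' processing notes, the genome build was hg38 and the tools included Bowtie2 2.3.5, UMI-tools 1.0.0, R 4.0.5 and HOMER 4.8.2. Their roles, the normalization and the handling of reads with several placements are not stated in any source used here. Strands are not split, since windows on opposite strands held nearly the same overlaps (r = 0.996 across 625 genes, which are not independent replicates).

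Bins are centred on their label. Signal was summed per gene and tested with limma 3.58.1 in R 4.3.3 (trend) on log2(signal + 276.88), with genes kept at a mean of at least 276.88 and Benjamini-Hochberg adjustment over all genes kept, at a threshold of 0.05. Changes of low genes are understated on this scale. A read covered 1.38 bins on average, by which overlaps were divided for the exact Clopper-Pearson intervals of ratios and for exact tests. The exact intervals of exon shares count each overlap as 1 read and are therefore too narrow. All of these cover counting error only. A count of 0 allows up to 3 reads, a signal of 53.0 and 57.5 in tagged-CFAP20 and 343 and 1143 in CFAP20-KO replicates 1 and 2. Exons are those of GENCODE 44 canonical transcripts, in which 9478 of 9667 identifiers were found. The 8 genes and the lists were chosen with earlier results of these data known. Named beside them are the 3 other genes with most signal in each list and the 3 nearest to the gene with most signal. Alternatives were pseudocount, filter, scaling, trend, replicate block, leaving out each library or gene, and exact tests. Tested on simulated data with counting error as the only spread between libraries, the limma fit as reported passed no unchanged gene. With the smaller pseudocount and genes above 0 in at least 2 libraries it passed many unchanged genes. Counts under that setting are therefore not read as changes. A fit that passes no gene would also meet this check, so it does not show that real changes would be found.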

Additional observations from a re-analysis of the deposited data

How the results depend on the processing

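The limma count of genes passing, 0 of 1487 as reported, was also 0 with no filter, without trend and under both scalings. It was 40 with a pseudocount of 10, 1046 with genes above 0 in at least 2 libraries, 1681 with both of these, 444 by exact tests of the deposited signal and 16 by exact tests of shares. Leaving out 1 library in turn gave 0 to 1152, with 0 for either tagged-CFAP20 library. With a replicate block limma passed 171 genes, and 1 of the 8 described here, RPS24 (adjusted p = 0.0278). Same-numbered libraries did not deviate together (r = -0.029 across 1487 genes). With 9146 and 3908 overlaps over all genes in the CFAP20-KO libraries, this cannot tell whether same-numbered libraries were prepared as pairs. Of the 8 genes, 2 passed by exact tests of the deposited signal and 0 to 5 when a library was left out. The ratio of summed signal stayed above 1 in each of the 14 alternatives run, from 1.12 with equal window totals to 3.01 without CFAP20-KO replicate 2, and the exon share stayed lower with the tagged protein in all 13. Of those 14, only equal window totals take out the factor common to all genes, whose own ratio was 2.17. The difference in share of the gene signal changed sign to -0.013 percentage points without RPS24 and -0.0025 without EIF2S3.

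Single log2 changes reversed as follows, and the cause was not tested. RPL11 became 0.26 with a pseudocount of 10, with either filter, and 0.31 by exact tests of the deposited signal, where RPS4X became 0.050. With a library left out, RPL11 lay between -0.61 and 0.16, RPL37A between -0.25 and 1.33, EEF1E1 between -0.075 and 0.41, and EIF3H between -0.045 and 0.86. Scaled to equal window totals, EEF1A1 was -0.21, EEF1E1 -0.54, EIF3H -0.23, SARS -0.22 and DDX21 -0.12. Scaled to equal gene signal, they were -0.21, -0.55, -0.24, -0.23 and -0.13. In the exact test on shares, EEF1A1 was -0.42, EIF3B -0.038, EEF1E1 -0.91, EIF3H -0.38, GARS -0.0076, SARS -0.29 and DDX21 -0.13. RPL6 was tested with the looser filters, where it did not pass. The control depth limits each ratio here: the 8 genes rest on 24 and 11 overlaps in the CFAP20-KO libraries.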
